A study of Homo sapiens with 12 samples.

Results

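The 37 genes described here are textbook transcriptional targets and partners of p53, taken as a list of symbols. The list was chosen with earlier results of these data known, so shares of members set beside those of all genes are descriptive. All 37 were found among the 58290 gene IDs and reporters measured in HEK-293T, a human embryonic kidney line transformed with adenovirus DNA that carries the SV40 large T antigen. By role, 8 are arrest genes, 12 are death genes, 4 serve DNA repair and nucleotide supply, 7 feed back on p53 or tune it, and 6 act in stress signalling and metabolism. The estimated counts of every transcript of a gene were summed, and 36 of the 37 passed the filter on low counts. The exception was TNFRSF10A, the TRAIL receptor DR4, whose mean was 0.0149 TPM (counts per transcript length, scaled to the same library total).

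Polyadenylated RNA was sequenced in 12 libraries, 3 called biological replicates in each of 4 groups. The cells carried a CIRTS, an RNA-guided effector assembled from human protein parts. The effector was a nuclease (CIRTS-12) or YTHDF2 (CIRTS-3), a reader of m6A-marked RNA that promotes its decay. The guide was non-targeting (NT) or directed at SMARCA4, the ATPase of the BAF chromatin remodeller. Each group is named by effector and guide: nuclease-NT and YTHDF2-NT are the groups with the NT guide, and nuclease-SMARCA4 and YTHDF2-SMARCA4 those with the SMARCA4 guide. All 4 groups share the HEK-293T background, an established line with large T, so none has an unhindered p53 pathway, and there was no group without an effector. The labels name no culture, delivery step or day, and the p-values therefore reflect how these libraries vary, which may in part be technical.

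p53 is a transcription factor that is kept low by the ubiquitin ligase MDM2 and is stabilised by DNA damage and other stress. It then binds response elements near genes that halt the cell cycle, start apoptosis, repair DNA or shut p53 off again. Large T binds the DNA-binding domain of p53, which both stabilises the protein and hampers its action. Messages of p53 targets in this line therefore need not follow the amount of p53 protein. Neither p53 protein nor large T was analysed here.

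The consensus of the p53 response element, a pair of 10-base elements that lie up to 3 bases apart, was searched for in RefSeq promoter windows from 250 bases before to 50 bases after each start (GRCh38.p14). Both strands were covered, since the consensus reads the same on each, and up to 2 mismatches over 20 positions were allowed with the core C and G of each element fixed. It was found in 4 of the 30 members with a window, against 1.23% of 27305 genes. These 4 sites, printed with the match in capitals, are shown because FAS, DDB2, MDM2 and AEN are among the members described in most detail below.
FAS: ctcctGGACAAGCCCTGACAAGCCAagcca
DDB2: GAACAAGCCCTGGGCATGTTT
MDM2: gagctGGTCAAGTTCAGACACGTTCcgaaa
AEN: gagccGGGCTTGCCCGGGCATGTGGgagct
The DDB2 stretch (chr11:47214979-47214999, plus strand) has 0 mismatches, a 1-base spacer, and lies in the 5′ untranslated part of the first exon of DDB2-201. The FAS stretch (chr10:88991304-88991333, plus strand) begins its match 122 bases before the start, with 2 mismatches. It is exonic in the models FAS-201 and FAS-207, intronic in others such as FAS-204, and overlaps an exon of ACTA2 on the other strand. The MDM2 stretch (chr12:68808918-68808947, plus strand) begins its match 94 bases before a RefSeq start, with 2 mismatches, inside an intron of MDM2-202. The AEN stretch (chr15:88621301-88621330, plus strand) also has 2 mismatches, begins its match 34 bases before the RefSeq start and falls within the 5′ untranslated exon of AEN-201. A match describes these letters and was not tested for binding. GADD45A, RRM2B, PHLDA3, TNFRSF10B, FBXO22, TP53INP1 and TNFRSF10A had no window in the table.

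Library totals ranged from 9207196 to 18047859 estimated counts. SMARCA4 itself stood at 225.4, 245.1 and 242.2 CPM (counts scaled to a common library total) in the nuclease-NT libraries, against 238.8, 250.0 and 219.6 in nuclease-SMARCA4. The YTHDF2-NT libraries held 302.4, 234.8 and 250.2 CPM, against 243.4, 210.2 and 220.6 in YTHDF2-SMARCA4. The guides overlapped with either effector (exact two-sided permutation p = 0.9 and 0.2; 0.1 is the smallest that 3 against 3 can give), so the level of the targeted message does not check the labels. HEK-293T markers were present (8 of 8 tested, summed 562.5 to 723.1 TPM). VIM, at a mean of 424.9 TPM, made up most of that sum. Markers of fibroblasts (at most 6.484 TPM), epithelium (5.732), blood (4.127) and liver (1.121) were low in every library, with KRT5, KRT14, HBB, APOB and SERPINA1 at 0. YTHDF2-NT 1 and YTHDF2-NT 2 stood apart from the other libraries: the deviation of genes from their means followed transcript length with a Spearman rho of −0.49 and 0.43, against −0.24 to 0.28 elsewhere (16297 genes, which are not independent).

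The members spanned a wide range of levels per transcript length in these large T cells. CCNG1, a cyclin that partners protein phosphatase 2A, was the highest at a mean of 268 TPM, followed by BAX, the mitochondrial pore former, at 214 TPM. MDM2 ranked 3 of 37 at 134 TPM, and CDKN1A, which encodes the cyclin-dependent kinase inhibitor p21, ranked 12 of 37 at 51.2 TPM. RPS27L, a ribosomal protein relative, stood at 124 TPM, TRIAP1, a mitochondrial inhibitor of apoptosis, at 98.6, GADD45A, a growth arrest protein, at 92.8, and PMAIP1, the BH3-only protein NOXA, at 83.2. ACER2, a Golgi ceramidase, was the lowest member tested, at 1.18 TPM. By this summed TPM, which is not the level of coding message alone, feedback genes filled 3 of the 5 highest places. Death genes stood at both ends of the order, and the ranges of neighbours in the plot of levels mostly overlapped.

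**Figure D1:**
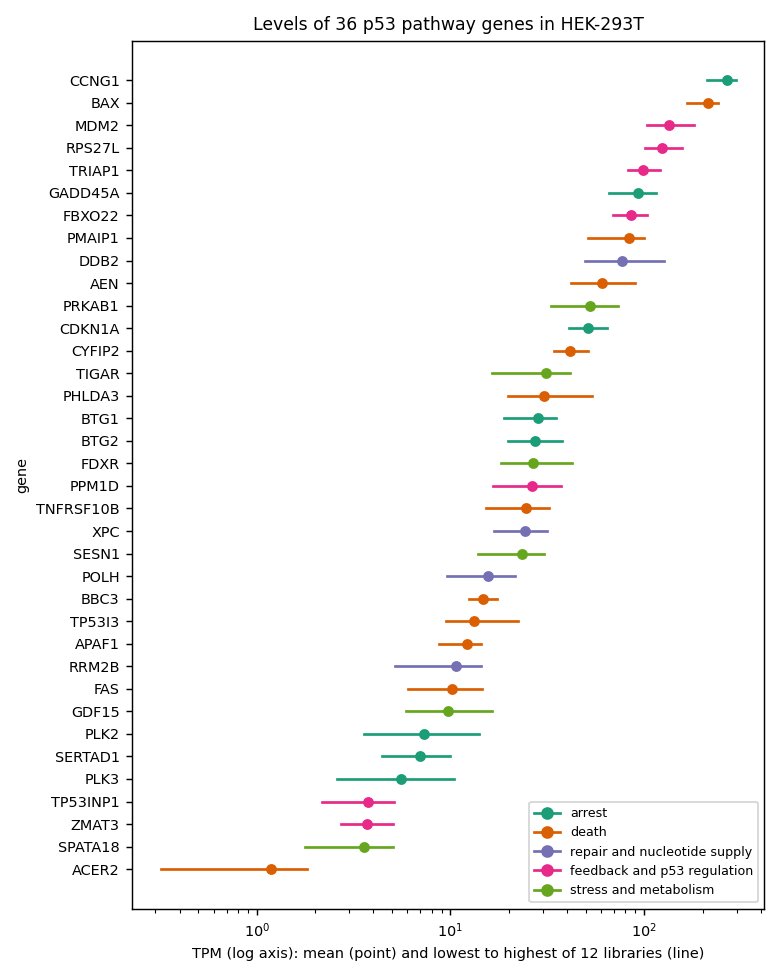
Level of each of the 36 tested members in TPM on a log axis, coloured by role; the point is the mean of 12 libraries and the line runs from the lowest to the highest library. CCNG1 and BAX stand at the top, with means of 268 and 214 TPM, and ACER2 at the bottom with 1.18 TPM.

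With the nuclease, most p53 pathway genes had lower means under the SMARCA4 guide than under the NT guide. The mean of 32 of 36 members lay on the lower side, where 50.1% of all genes did, and the median log2 difference (SMARCA4 guide minus NT guide) was −0.31, against −0.0 over all genes. For 21 of 36 the 3 nuclease-SMARCA4 libraries all lay below the 3 nuclease-NT libraries (58.3%; 12.2% of all genes), and for BTG1 alone they lay above (2.78%; 12.8% of all genes). In the edgeR fit of all 12 libraries, in which the 4 groups share 1 estimate of the spread, 0 members passed an adjusted p of 0.05 (0.00614% of all genes did). In that fit, 17 members passed an unadjusted p of 0.05 (10.9% of all genes), 16 of them lower (6.23% of all genes lower).

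How many members passed depended on the libraries that set the spread and on the method of fitting. In an edgeR fit of the 6 nuclease libraries alone, 11 of 36 members fell at an adjusted p of 0.05, where 1.89% of 15426 genes fell, and 0 rose, where 1.68% did. These 11 were PRKAB1, DDB2, PPM1D, AEN, PLK2, FAS, BTG2, PLK3, MDM2, ZMAT3 and PHLDA3. The biological coefficient of variation was 6.76% in that fit, 11.4% over the 12 libraries and 14.4% in the 6 YTHDF2 libraries. DESeq2 on the 12 libraries called 8 members, all lower (1.01% of genes called), and limma with library weights 13, all lower (3.06% called). Leaving out YTHDF2-NT 1 or YTHDF2-NT 2, which take no part in the comparison but enter the shared spread, gave 3 calls each, DDB2, PPM1D and PRKAB1, where 0.263% and 0.161% of genes were called. In these bulk libraries, fewer cells with an active pathway and less RNA per cell cannot be told apart.

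**Figure D2:**
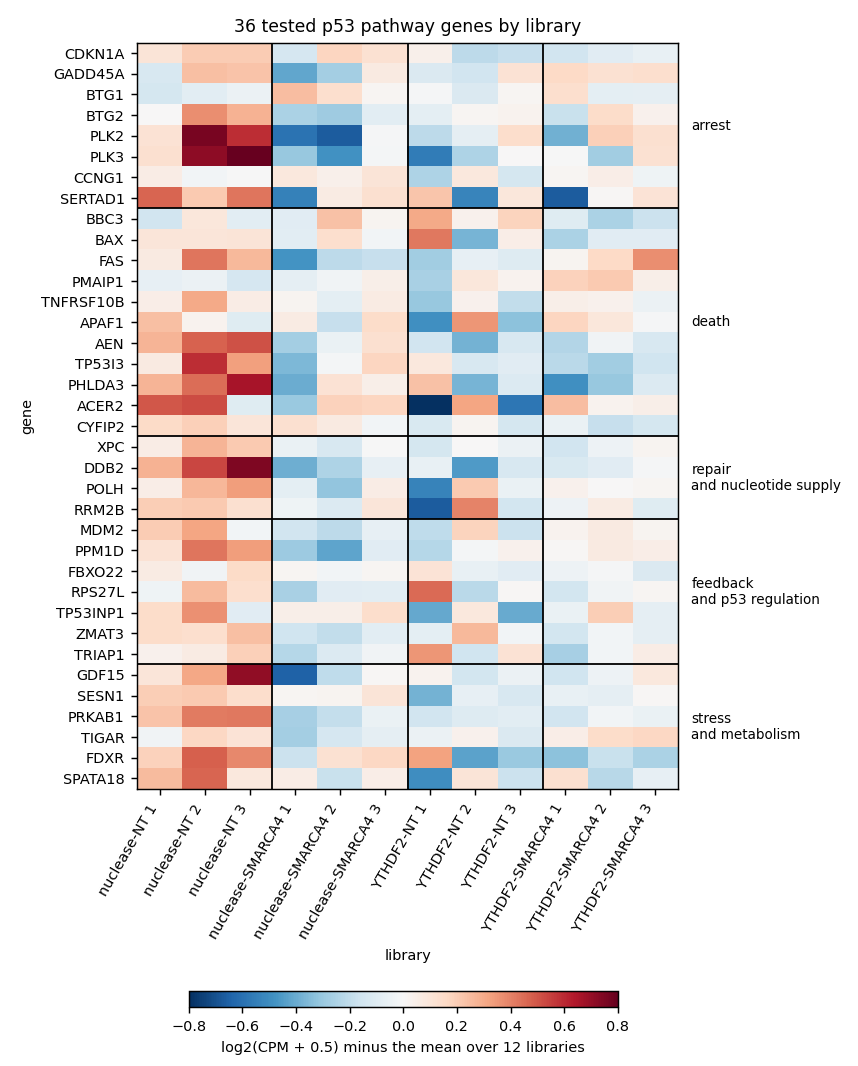
Each row is 1 of the 36 tested members, grouped by role, and each column 1 library; the colour is log2(CPM + 0.5) minus the gene's mean over 12 libraries, red above and blue below, cut at −0.8 and 0.8. The nuclease-NT columns are red for most genes of all 5 roles, with 28 to 32 of 36 members above their mean.

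Among the 8 arrest genes, which stop the cell cycle, 6 were lower with the SMARCA4 guide in the nuclease cells (50.1% of all genes). The median log2 difference was −0.37. Without overlap 4 were lower (12.2% of all genes) and 1 higher (12.8%). PLK2 and PLK3 had the 2 largest differences, p21 itself differed little, and BTG1 and CCNG1 were on the higher side. CDKN1A (chr6:36676460-36687339) stood at 100.2, 107 and 108 CPM in nuclease-NT, 84.7, 105 and 102 in nuclease-SMARCA4, 95.8, 80.4 and 81.8 in YTHDF2-NT, with 83.8, 87.4 and 89.3 in YTHDF2-SMARCA4. Its nuclease-guide groups overlapped, at a log2 difference of −0.11 (SE 0.0915, edgeR adjusted p = 0.689). PLK2, a stress-induced polo-like kinase, stood at 11.7, 18.6 and 16.5 CPM in nuclease-NT, 7, 6.62 and 10.7 in nuclease-SMARCA4, 9.28, 10.2 and 12 in YTHDF2-NT, with 8.16, 12.4 and 11.8 in YTHDF2-SMARCA4. All 3 nuclease-NT values exceeded those of nuclease-SMARCA4, at a log2 difference of −0.95 (SE 0.221; edgeR adjusted p = 0.173 over 12 libraries and 0.0298 in the nuclease libraries alone). PLK3, its relative, stood at 5.98, 9.24 and 10.7 CPM in nuclease-NT, 4.3, 3.73 and 5.36 in nuclease-SMARCA4, 3.52, 4.49 and 5.44 in YTHDF2-NT, with 5.41, 4.38 and 5.95 in YTHDF2-SMARCA4. Its nuclease-NT libraries were above the other 9, and the guide difference was −0.95 (SE 0.234; edgeR adjusted p = 0.199 and 0.036). BTG2, which recruits the CCR4-NOT deadenylase, stood at 64.3, 83.3 and 77.9 CPM in nuclease-NT, 53.8, 52.6 and 60.6 in nuclease-SMARCA4, 60.8, 64.8 and 65.4 in YTHDF2-NT, with 56.8, 71.3 and 65.9 in YTHDF2-SMARCA4. It fell by 0.44 in the nuclease libraries alone (edgeR adjusted p = 0.0303), without overlap, and was not called over 12 libraries (adjusted p = 0.200).

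The other arrest genes did not pass between guides with either effector in edgeR over 12 libraries, or with each effector's libraries alone. CCNG1 passed with YTHDF2 in limma with library weights (0.15, adjusted p = 0.0191) and without YTHDF2-NT 2 in edgeR. GADD45A stood at 89.4, 115 and 114 CPM in nuclease-NT, 73.1, 80.8 and 103 in nuclease-SMARCA4, 90.0, 87.7 and 106 in YTHDF2-NT, with 109, 106 and 107 in YTHDF2-SMARCA4. The 2 lowest values were in nuclease-SMARCA4, but nuclease-NT 1 was below nuclease-SMARCA4 3, so the groups overlapped. CCNG1 stood at 344, 325 and 329 CPM in nuclease-NT, 349.9, 340.1 and 354 in nuclease-SMARCA4, 278, 350.4 and 299 in YTHDF2-NT, with 334, 342 and 322 in YTHDF2-SMARCA4. It was nearly level, with a nuclease guide difference of 0.07 (SE 0.0789, edgeR adjusted p = 0.806). SERTAD1, a CDK4 and E2F cofactor, averaged 16.4 ± 1.58 CPM in nuclease-NT and 11.8 ± 2.92 in nuclease-SMARCA4 (SD, n = 3) and did not pass (edgeR adjusted p = 0.49). BTG1, the paralogue of BTG2, went the other way, 72.5 ± 2.45 against 84.9 ± 6.84 CPM, also without passing (edgeR adjusted p = 0.347).

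The 11 tested death genes were more mixed, with 9 lower (50.1% of all genes) and a median nuclease guide difference of −0.14. Without overlap 3 were lower (12.2% of all genes) and 0 higher (12.8%). The receptor FAS and the nuclease AEN stood out, whereas the BH3-only genes and BAX did not. FAS (chr10:88990582-89015785), whose ligation starts the caspase cascade, stood at 15.2, 19.7 and 17.4 CPM in nuclease-NT, 10.3, 12.5 and 12.7 in nuclease-SMARCA4, 11.8, 13.8 and 13.5 in YTHDF2-NT, with 14.7, 16.3 and 18.9 in YTHDF2-SMARCA4. In the nuclease cells the SMARCA4-guide values all lay below the NT-guide values, at a log2 difference of −0.57 (SE 0.135; edgeR adjusted p = 0.186 over 12 libraries, 0.0328 in the nuclease libraries alone). AEN (chr15:88621296-88632282), an apoptosis-enhancing exonuclease, stood at 197, 226 and 232 CPM in nuclease-NT, 135, 157 and 178 in nuclease-SMARCA4, 147, 125 and 149 in YTHDF2-NT, with 138, 159 and 149 in YTHDF2-SMARCA4. The 3 nuclease-NT libraries were above the other 9, with a guide difference of −0.48 (SE 0.107; edgeR adjusted p = 0.157 and 0.0225). PHLDA3, which represses AKT, averaged 47.2 ± 6.45 CPM in nuclease-NT against 32.6 ± 6 in nuclease-SMARCA4 (SD, n = 3), and fell in the nuclease libraries alone (edgeR adjusted p = 0.0365).

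The BH3-only genes and BAX, which act in the mitochondrial arm, showed no such separation in the nuclease cells. BBC3, the BH3-only protein PUMA, stood at 16.5, 19.6 and 17.3 CPM in nuclease-NT, 17.2, 21.7 and 18.7 in nuclease-SMARCA4, 22.8, 18.9 and 20.9 in YTHDF2-NT, with 17.1, 15.4 and 16.2 in YTHDF2-SMARCA4. The nuclease groups overlapped, and its 2 lowest values were in YTHDF2-SMARCA4. PMAIP1 stood at 123, 125 and 117 CPM in nuclease-NT, 123, 126 and 134 in nuclease-SMARCA4, 108, 137 and 132 in YTHDF2-NT, with 146, 149 and 134 in YTHDF2-SMARCA4. BAX stood at 108, 107 and 108 CPM in nuclease-NT, 94.7, 110.0 and 99 in nuclease-SMARCA4, 135, 77.3 and 104 in YTHDF2-NT, with 84.2, 94.3 and 94.1 in YTHDF2-SMARCA4. Its nuclease-NT values were nearly equal and lay inside the range of nuclease-SMARCA4, at a log2 difference of −0.09 (SE 0.145, edgeR adjusted p = 0.869). TNFRSF10B, the TRAIL receptor DR5, stood at 79.2, 94.6 and 79.8 CPM in nuclease-NT, 77.5, 72.3 and 80.0 in nuclease-SMARCA4, 61.9, 78.3 and 66.6 in YTHDF2-NT, with 79, 78.2 and 73.9 in YTHDF2-SMARCA4. Its nuclease guide difference of −0.14 did not pass (edgeR adjusted p = 0.618). APAF1, the apoptosome scaffold, TP53I3, a quinone oxidoreductase, CYFIP2, a WAVE complex subunit, and ACER2 ranged from −0.41 to −0.05 in the same comparison, and none passed.

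All 4 repair and nucleotide supply genes were lower with the SMARCA4 guide in the nuclease cells, with a median of −0.29 and 3 of 4 without overlap (12.2% of all genes were lower without overlap and 50.1% had a lower mean). DDB2 (chr11:47214465-47239240), which recognises ultraviolet damage in nucleotide excision repair, stood at 75.2, 89.8 and 104 CPM in nuclease-NT, 47.1, 51.9 and 59.1 in nuclease-SMARCA4, 59.2, 45 and 56.7 in YTHDF2-NT, with 56.9, 58.1 and 61.5 in YTHDF2-SMARCA4. Its nuclease-NT libraries were above the other 9, and the guide difference was −0.77 (SE 0.129; edgeR adjusted p = 0.111 over 12 libraries, 0.0117 in the nuclease libraries alone), a level 0.588 times that with the NT guide. XPC, which also recognises lesions, stood at 83.8, 97.3 and 93.1 CPM in nuclease-NT, 77.7, 73.5 and 80.3 in nuclease-SMARCA4, 72.8, 80.7 and 78 in YTHDF2-NT, with 72.4, 78.1 and 81.6 in YTHDF2-SMARCA4. It too was above the other 9 libraries in nuclease-NT, by a smaller margin, and did not pass (−0.25, SE 0.0791, edgeR adjusted p = 0.298 and 0.056). POLH, the translesion polymerase eta, and RRM2B, the p53-inducible ribonucleotide reductase subunit, were at −0.33 and −0.20 and did not pass (edgeR adjusted p = 0.468 and 0.733).

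The 7 feedback and regulator genes were all lower in the same comparison (50.1% of all genes), 5 without overlap (12.2% of all genes), with a median of −0.27. MDM2 (chr12:68808176-68850686) stood at 186, 200.5 and 159 CPM in nuclease-NT, 145, 139 and 154 in nuclease-SMARCA4, 139.9, 183 and 143 in YTHDF2-NT, with 165, 169.7 and 164 in YTHDF2-SMARCA4. The SMARCA4-guide values in nuclease cells lay below all 3 NT-guide values, at a log2 difference of −0.32 (SE 0.106; edgeR adjusted p = 0.309 over 12 libraries, 0.0363 in the nuclease libraries alone). PPM1D (chr17:60600183-60666280), the phosphatase WIP1 that switches the damage response off, stood at 82.5, 103 and 95.8 CPM in nuclease-NT, 62, 56.7 and 71.5 in nuclease-SMARCA4, 64.8, 75.4 and 77.9 in YTHDF2-NT, with 76.5, 79.9 and 78.8 in YTHDF2-SMARCA4. Its lowest nuclease-NT library was above every other library, and the guide difference was −0.56 (SE 0.104; edgeR adjusted p = 0.142 and 0.019). ZMAT3, an RNA-binding zinc finger protein, fell in the nuclease libraries alone, 34.9 ± 1.36 against 27.8 ± 1.12 CPM (SD, n = 3; edgeR adjusted p = 0.0365). RPS27L stood at 48.6, 59.5 and 54.8 CPM in nuclease-NT, 41.5, 46.7 and 46.9 in nuclease-SMARCA4, 68.2, 42.8 and 50.1 in YTHDF2-NT, with 45, 48.7 and 50.2 in YTHDF2-SMARCA4. TRIAP1 stood at 96.6, 98.6 and 108 CPM in nuclease-NT, 80.4, 87.3 and 92.2 in nuclease-SMARCA4, 120.3, 84.2 and 102 in YTHDF2-NT, with 78.3, 92.6 and 98 in YTHDF2-SMARCA4. For both, YTHDF2-NT 1 was the highest of all libraries. TP53INP1, a stress protein of autophagy and cell death, stood at 21.2, 24.7 and 17.9 CPM in nuclease-NT, 19.8, 19.7 and 21.1 in nuclease-SMARCA4, 14.2, 20.3 and 14.3 in YTHDF2-NT, with 18.4, 22 and 18.1 in YTHDF2-SMARCA4. FBXO22, the substrate receptor of a ubiquitin ligase, averaged 104 ± 6.63 and 99.9 ± 1.62 CPM in the nuclease groups, and like the former 3 it did not pass.

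All 6 stress and metabolism genes were lower with the SMARCA4 guide in nuclease cells (50.1% of all genes), all 6 without overlap (12.2% of all genes), at a median of −0.31. PRKAB1 (chr12:119667753-119681630), a regulatory subunit of the energy sensor AMPK, had the smallest p of all members and stood at 78.9, 90.1 and 90.6 CPM in nuclease-NT, 56.1, 59 and 65.1 in nuclease-SMARCA4, 60.6, 62.8 and 63.6 in YTHDF2-NT, with 60.6, 66.3 and 65 in YTHDF2-SMARCA4. The nuclease-NT values were above the other 9, and the guide difference was −0.53 (SE 0.0806; edgeR adjusted p = 0.0813 over 12 libraries, 0.0117 in the nuclease libraries alone). TIGAR, a fructose bisphosphatase that restrains glycolysis, stood at 43.9, 50.4 and 48.3 CPM in nuclease-NT, 37, 40.9 and 42.6 in nuclease-SMARCA4, 43.4, 46 and 41.3 in YTHDF2-NT, with 46.5, 49.6 and 50.5 in YTHDF2-SMARCA4. Nuclease-SMARCA4 held 2 of the 3 lowest values, and the difference did not pass (−0.24, edgeR adjusted p = 0.32). SESN1, a sestrin that restrains mTORC1, stood at 63.6, 64.1 and 61.2 CPM in nuclease-NT, 56, 56.4 and 59.5 in nuclease-SMARCA4, 42.6, 52.9 and 50.6 in YTHDF2-NT, with 53.1, 52.7 and 55.8 in YTHDF2-SMARCA4. GDF15, a secreted stress cytokine, averaged 11.5 ± 2.64 CPM in nuclease-NT and 7.13 ± 1.69 in nuclease-SMARCA4 (SD, n = 3; −0.68, edgeR adjusted p = 0.22 and 0.0704). FDXR, the mitochondrial ferredoxin reductase, and SPATA18, a mitochondrial quality control factor, were both at −0.31 and did not pass (edgeR adjusted p = 0.516 and 0.503).

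**Figure D3:**
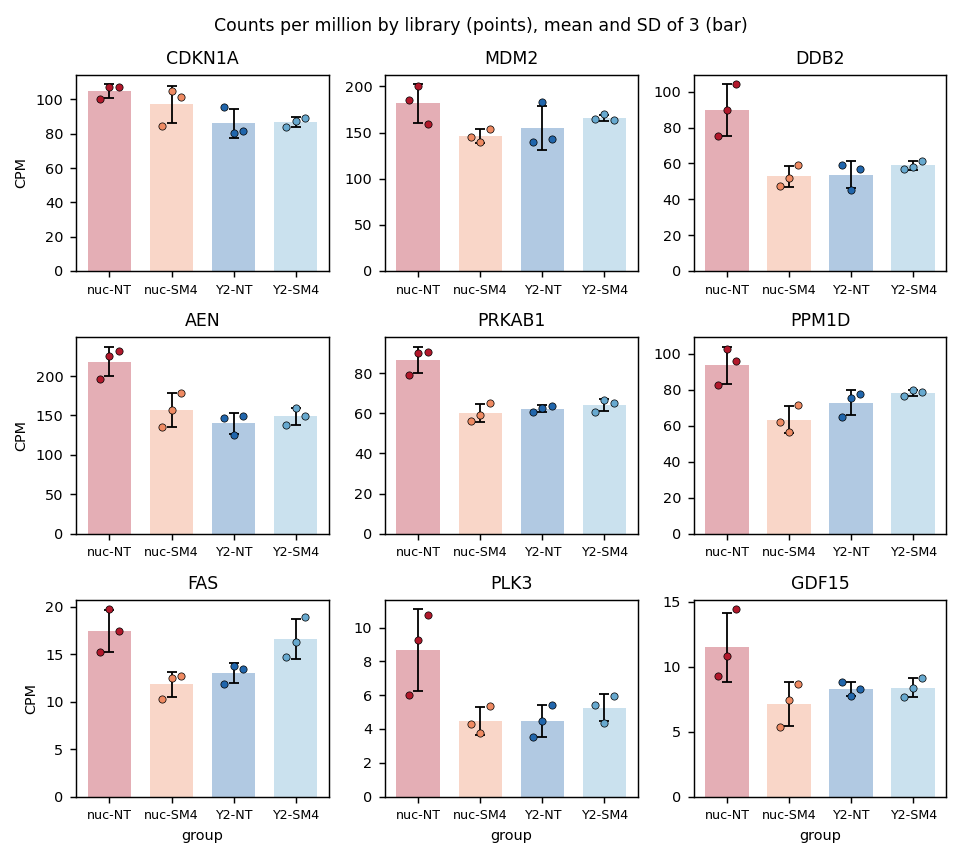
CPM of 9 members in each library (points) with the group mean (bar) and SD of 3 libraries (line); nuc and Y2 stand for the nuclease and YTHDF2, and NT and SM4 for the NT and SMARCA4 guides. For DDB2, AEN, PRKAB1, PPM1D, PLK3 and GDF15 the 3 nuclease-NT points lie above the other 9, and for CDKN1A they lie above the 6 YTHDF2 points but overlap with nuclease-SMARCA4.

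Nuclease-NT was the group that stood apart. Its 3 libraries lay above the other 9 for 9 of 36 members, SESN1, PRKAB1, GDF15, DDB2, XPC, PPM1D, PLK3, PHLDA3 and AEN (25.0%; 1.3% of all genes). In the other groups 0 members lay above or below the other 9, where 0.485% to 1.88% of all genes did in each direction. Nuclease-NT had the highest of the 4 group means for 28 of 36 members (77.8%; 23.4% of all genes). The members' mean log2 deviation was 0.12, 0.289 and 0.234 in the nuclease-NT libraries and −0.183, −0.097 and 0.028 in nuclease-SMARCA4. Over the 6 YTHDF2 libraries it ran from −0.131 to −0.009. Other measures moved with these groups, and their part in the result was not tested. The renilla luciferase reporter averaged 498.2 ± 72.8 CPM with the NT guide and 270.3 ± 55.9 with the SMARCA4 guide in nuclease cells, and 386.4 ± 80.5 and 428.7 ± 66.5 in YTHDF2 cells (SD, n = 3). The firefly reporter averaged 3993 ± 517 and 2437 ± 605 CPM in nuclease cells, and 4242 ± 980 and 3491 ± 429 in YTHDF2 cells, again with the NT guide first. Of the 8 HEK-293T markers, 6 were higher in nuclease-SMARCA4 than in nuclease-NT (49.9% of all genes) and 2 were lower. NEFL and NEFM, neurofilament genes, rose in the nuclease libraries alone (edgeR adjusted p = 0.0312 and 0.019), where 1.68% of all genes rose.

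With YTHDF2, the same guide change left the median of the members close to that of all genes. The mean was lower for 11 members (51.8% of all genes) and higher for 25 (48.2%), and the median log2 difference was 0.05, against −0.01 over all genes. Over the 12 libraries 0 members passed in edgeR (0.0% of all genes did), 2 passed an unadjusted p of 0.05 (6.82% of all genes), and DESeq2 called 0 of the 10 members to which it gave an adjusted p (0.125% of genes). FAS, TIGAR and GADD45A were higher without overlap (8.33%; 4.29% of all genes), and BBC3 and TP53I3 lower (5.56%; 4.98% of all genes), so these shares are near the background or rest on few genes. BBC3, which had the smallest p, averaged 20.8 ± 1.97 CPM with the NT guide and 16.2 ± 0.899 with the SMARCA4 guide (SD, n = 3; −0.36, SE 0.115, edgeR adjusted p = 0.703). FAS averaged 13 ± 1.05 and 16.6 ± 2.1 CPM (0.36, SE 0.134, edgeR adjusted p = 0.703), the opposite direction to the nuclease cells. PMAIP1, TIGAR, SESN1, TP53INP1 and TNFRSF10B ranged from 0.15 to 0.26, TRIAP1 was at −0.19, and CDKN1A was at 0.01. The count depended on the YTHDF2-NT libraries. Without YTHDF2-NT 2, APAF1, BAX, BBC3, CCNG1 and TP53INP1 passed, 2 lower and 3 higher, as did 9.46% of all genes. With limma, which gave YTHDF2-NT 3 a weight of 8.03 and the other YTHDF2-NT libraries 0.205 and 0.225, 9 members passed, 8 higher, and 17.7% of all genes.

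The difference between the 2 guide effects was tested directly as an interaction. This contrast uses the libraries of both guide comparisons and is not independent of either. The difference was positive, that is, less negative with YTHDF2, for 33 of 36 members (49.4% of all genes), with a median of 0.30. In edgeR 0 members passed (0.0% of all genes did), and 16 passed an unadjusted p of 0.05 (11.1% of all genes). FAS had a difference of 0.92 (SE 0.19), DDB2 of 0.90 (SE 0.182), PPM1D of 0.67 (SE 0.147) and PRKAB1 of 0.57 (SE 0.114), each at an edgeR adjusted p of 0.222. DESeq2 called these 4 (0.233% of genes), and limma with library weights called 14 (10.2%). Without YTHDF2-NT 2, edgeR called 11 members, all positive, and 8.62% of all genes. BBC3 was at −0.47 (SE 0.164, edgeR adjusted p = 0.394), 1 of 3 members on the negative side with BTG1 and BAX.

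**Figure D4:**
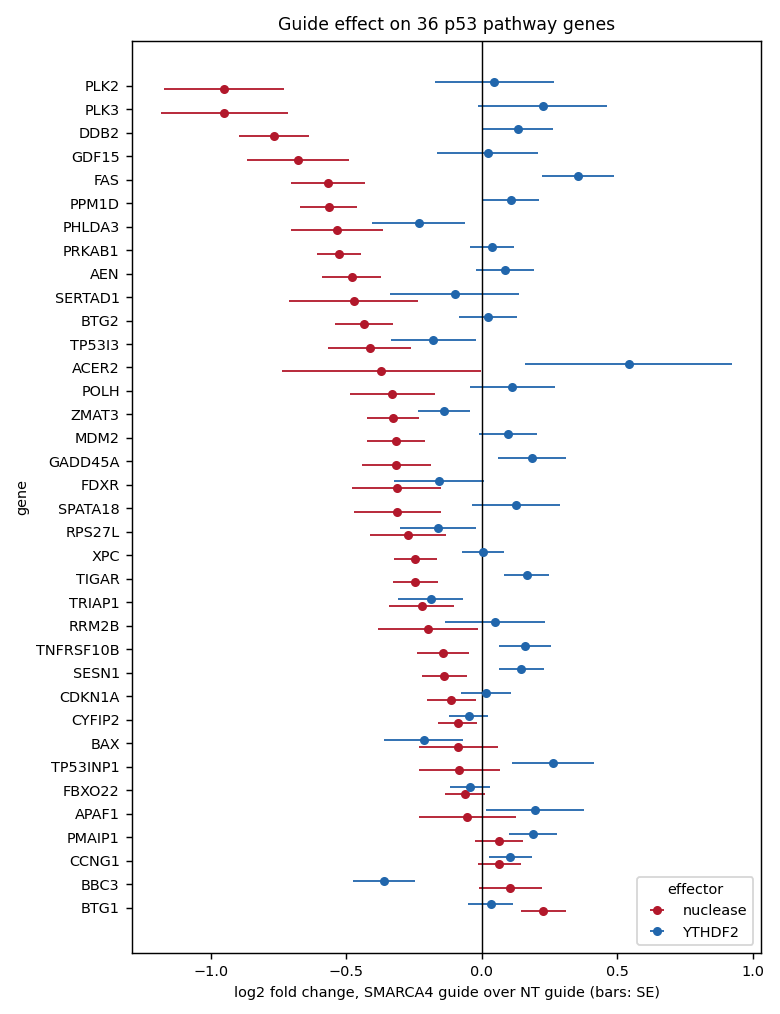
Log2 difference between the SMARCA4 guide and the NT guide for the 36 tested members, red with the nuclease and blue with YTHDF2; bars are standard errors from the edgeR fit of 12 libraries. The nuclease values lie to the left of 0 for 32 members, down to −0.95 for PLK2 and PLK3, and the YTHDF2 values lie around 0.

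The effectors were also compared with the guide held the same, where effector and any batch that went with it cannot be told apart. With the NT guide the contrast uses the same nuclease-NT libraries as the nuclease guide comparison, so the 2 are not independent. Members were lower with YTHDF2 than with the nuclease for 32 of 36 (48.7% of all genes), at a median of −0.29, against 0.01 over all genes. Without overlap 13 were lower (36.1%; 5.96% of all genes) and 0 higher (6.86% of all genes). AEN was at −0.64 (SE 0.108, edgeR adjusted p = 0.0756), PRKAB1 at −0.47 (SE 0.0805, 0.0758), DDB2 at −0.74 (SE 0.129, 0.0841) and SESN1 at −0.37 (SE 0.0831, 0.214). CDKN1A averaged 105 ± 4.15 against 86 ± 8.49 CPM (SD, n = 3; −0.29, edgeR adjusted p = 0.296), without overlap. In edgeR 0 members passed (0.0491% of all genes did) and 21 passed an unadjusted p of 0.05 (10.9%). DESeq2 called AEN, DDB2, PRKAB1 and SESN1 of 25 members with an adjusted p (1.58% of genes), and limma with library weights 26 members (21.7%). Without YTHDF2-NT 2, 17 members were called (9.61% of all genes), and without YTHDF2-NT 1, 3 were (0.0958%), all lower.

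With the SMARCA4 guide the 2 effectors gave similar counts in each direction. Of 36 members, 16 were lower with YTHDF2 (49.8% of all genes) and 20 higher (50.1%), at a median of 0.03, against 0.0 over all genes. In edgeR 0 members passed (0.00614% of all genes did) and 5 passed an unadjusted p of 0.05 (11.5%), and DESeq2 called 0 of 35 (0.859% of genes). Without overlap, 6 were higher (FAS, TIGAR, GADD45A, MDM2, PMAIP1 and PPM1D) and 5 lower (CYFIP2, SESN1, BAX, BBC3 and FDXR), 16.7% and 13.9%, where 13.4% of all genes were in each direction. In the fit of these 6 libraries alone, FAS (0.51), PPM1D (0.31) and TIGAR (0.29) rose, at edgeR adjusted p of 0.0378, 0.0378 and 0.0431 (2.23% of genes rose). GADD45A, the next by p, was at 0.33 and did not pass (edgeR adjusted p = 0.371 and 0.0555). Limma with library weights called FAS and TIGAR (2.91% of genes).

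For several members most counts lay on transcript models that are not annotated as protein coding, which bears on what a gene-level difference measures. PPM1D had 75.4% of its counts on PPM1D-202, a model marked for nonsense-mediated decay, and in coding models alone its nuclease guide difference was −0.60. PLK3 had 70.1% on such models, and its difference in coding models alone was −0.41 in place of −0.95. DDB2 had 70.0%, with a mean share of 75.9 ± 3.78% in nuclease-NT and 58.4 ± 7.52% in nuclease-SMARCA4 (SD, n = 3). Its coding model DDB2-201 was at 7.66, 11.5 and 17.5 TPM in nuclease-NT and 12.6, 11.3 and 10.6 TPM in nuclease-SMARCA4, which overlapped. The retained-intron model DDB2-209 was at 48.2, 58.8 and 58.0 TPM against 24.0, 28.2 and 31.7 TPM, and the decay-marked DDB2-203 at 17.8, 19.5 and 29.1 TPM against 6.87, 5.54 and 14.0 TPM. The gene-level difference of DDB2 thus lay on models that are not coding, and its coding models alone gave −0.02 (edgeR adjusted p = 0.983). FBXO22 and TNFRSF10B also had most of their counts there, 64.6% and 53.2%. AEN, by contrast, had 98.95% of its counts on the coding AEN-201, and coding models alone gave −0.48 for AEN, −0.59 for PRKAB1, −0.30 for MDM2, −0.47 for FAS and −1.02 for PLK2. None of the members passed in the fit of coding models (edgeR adjusted p from 0.309 for PRKAB1). Exons of 18 members overlap another gene, 17 of them on the opposite strand, such as CDKN1A with DINOL, XPC with LSM3 and FAS with ACTA2. The sources used here do not state whether counting used strand, and reads of such pairs cannot be told apart.

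The other pathway lists had medians closer to 0 in the nuclease guide comparison. MDM4, the MDM2 relative that masks p53, averaged 35.2 ± 0.63 and 35.5 ± 0.944 CPM in nuclease cells, and 36.5 ± 6.49 and 41.1 ± 2.59 CPM in YTHDF2 cells, the NT guide first in each pair (SD, n = 3). It did not pass between guides in edgeR (adjusted p = 0.983 in nuclease cells, 0.724 in YTHDF2 cells). Of 21 tested regulators of p53, 15 were lower with the SMARCA4 guide in nuclease cells (50.1% of all genes), at a median of −0.11. Over 12 libraries 0 of them passed in edgeR (0.00614% of all genes did). In the nuclease libraries alone CHEK2, a checkpoint kinase, and CDKN2A, the locus of p16 and ARF, rose (0.29 and 0.25, edgeR adjusted p = 0.0391 and 0.0395). Of all genes in that fit, 1.68% rose. Of 28 tested further targets of p53, 22 were lower (50.1% of all genes) at a median of −0.12. In the nuclease libraries alone 3 of these targets fell (1.89% of all genes) and 0 rose (1.68%). LIF, a cytokine, led them at 8.63 ± 2.3 against 4.22 ± 0.333 CPM (SD, n = 3; −1.02, edgeR adjusted p = 0.142 over 12 libraries and 0.0276 in the nuclease libraries alone).

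Genes that p53 represses through p21 and the DREAM complex, which are cell cycle genes, were measured for all 18 listed. With the SMARCA4 guide in nuclease cells 12 were higher (49.9% of all genes), the median was 0.13, and 7 were higher without overlap (12.8% of all genes). The 2 that passed in the nuclease libraries alone, CDC6 and MCM5, both of replication licensing, fell (−0.27 and −0.28, edgeR adjusted p = 0.0328 and 0.033). Of all genes in that fit, 1.89% fell and 1.68% rose. With YTHDF2, 13 of the 18 were lower (51.8% of all genes) at a median of −0.04, and 0 passed (0.0% of all genes did). Targets of ATF4, which share stress genes with the p53 pathway, had a median of −0.05 with the nuclease, and immediate early genes 0.12. Over 12 libraries 0 of 14 and 0 of 17 passed, where 0.00614% of all genes did.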

How the data were processed

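For each library the authors deposited a table of 200403 targets, each with its estimated count and TPM value. Per the submitters' processing notes, kallisto, sleuth and the hg38 build were used, with no versions given, and strand, annotation release and filters are not given in the sources used here. Kallisto shares reads among models with common sequence, so counts of similar or overlapping transcripts are estimates. The deposited TPM values divide by effective length and were used only for levels between genes or transcripts.

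Estimated counts were summed per gene ID and rounded. All 12 libraries were fitted with edgeR 4.0.16 in R 4.3.3 (TMM, filterByExpr with a minimum count of 10, 1 mean per group, quasi-likelihood, two-sided), over 16297 genes with 8 residual degrees of freedom. Benjamini-Hochberg adjustment ran over all genes, with calls at an adjusted p below 0.05. Levels are CPM on TMM-adjusted totals. The fit was tested on simulated data. Alternatives used DESeq2 1.42.0 and limma 3.58.1. The SMARCA4 level was compared by an exact permutation test. Gene positions and models come from the GENCODE annotation of GRCh38, by gene ID.

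The members, roles and lists were chosen with earlier results of these data known. Values in every library are given for CDKN1A and MDM2, for the 8 members with the smallest p in each guide comparison, the 4 smallest in each effector comparison and in the interaction, and the 2 highest by TPM in each role. From each other list at most 3 genes with the smallest p are named. Same-numbered libraries deviated together with correlations from −0.2 to 0.06, so the numbers were not taken to pair samples.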

Additional observations from a re-analysis of the deposited data

How the results depend on the processing

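The direction of the members' median did not turn under any of 22 alternatives, but the number called changed. Between the YTHDF2 guides that median was 0.05, and between the SMARCA4 groups 0.03. Both are below 0.074, the SD of the members' mean log2 deviation between replicates, so a kept sign there says little. With the nuclease, edgeR called 0 members between guides over 12 libraries, 10 with no filter on low counts (0.963% of all genes), 11 in the compared groups alone, 3 with the trend on transcript length removed (0.153%), 11 with YTHDF2-NT 1 and YTHDF2-NT 2 left out (4.01%; chosen after seeing the data), and 0 to 3 with 1 library left out. DESeq2 called 8 and limma with library weights 13. With YTHDF2, limma called 9 and the left-out libraries gave 0 to 5. For the interaction, the counts were 8 with no filter (1.43% of all genes), 1 with the length trend removed (0.0184%), 14 with limma, 4 with DESeq2 and 0 to 11 with 1 library left out. For YTHDF2-NT against nuclease-NT they were 9 (1.04% of all genes), 2 (0.0859%), 26, 4 and 0 to 17 in that order. The fit without both YTHDF2-NT 1 and YTHDF2-NT 2 keeps 1 YTHDF2-NT library. For these 2 comparisons and the YTHDF2 guides it therefore adds nothing to the counts. For YTHDF2-SMARCA4 against nuclease-SMARCA4 they were 3 in the groups alone, 2 with YTHDF2-NT 1 and 2 left out (4.05% of all genes), 2 with limma and 0 with any 1 library left out. Among single left-out libraries, YTHDF2-NT 2 gave the highest counts for the YTHDF2 guides (5), the interaction (11) and the NT contrast (17), and the cause was not tested. Calls over all genes also differed by over 1.5 times, for the nuclease comparison 1 in the 12-library fit, 550 in the groups alone, 333 with no filter, 498 with limma and 142 with DESeq2.

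With 1 library left out, the median ran from −0.351 to −0.213 for the nuclease guide comparison and from 0.036 to 0.112 for that of YTHDF2. It ran from 0.271 to 0.435 for the interaction, where length-scaled TPM counts gave 0.399. It ran from −0.374 to −0.235 between the NT groups and from 0.001 to 0.087 between the SMARCA4 groups. SMARCA4 turned to 0.003 with no filter and 0.028 in coding models in the nuclease comparison, and ran from −0.051 to 0.042 with 1 library left out, with 0.013, 0.003 and 0.042 above 0. With YTHDF2 it passed in limma at −0.179 (adjusted p = 0.0276), and ran from −0.291 to −0.111 with 1 library left out, passing at −0.291 without YTHDF2-NT 2. With YTHDF2, CDKN1A ran from −0.023 to 0.099 with 1 library left out, turning to −0.023 and −0.021 without YTHDF2-NT 2 and YTHDF2-NT 3, and MDM2 to −0.046 with length-scaled TPM counts. With the replicate block edgeR called 0 members in each of the 5 comparisons, and 2, 0, 1, 4 and 3 of all genes.

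ACER2, PLK3, GDF15 and PLK2 had the fewest counts of the tested members, 367, 903, 1397 and 1801 over the 12 libraries. DESeq2 gave no adjusted p for 38 member values.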
